A study of Danio rerio with 24 samples.

Results

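Brain aromatase and 8 further genes that mark radial glia and astroglia in the fish brain were followed across arrays hybridized with RNA labelled as ovary. The 9 genes were chosen by name, with earlier results of these data known, and each was read through its RefSeq target on the array: cyp19a1b (NM_131642), fabp7a (NM_131605), gfap (NM_131373), s100b (NM_001002552), glula (NM_181559), glulb (NM_182866), slc1a2b (NM_199979), slc1a3b (NM_001190303) and her4.1 (NM_001103128). They make up 9 of the 89208 targets of the platform and 9 of the 77368 targets that could be tested. The tests set each atrazine dose against 0 ppb, and a second description set 3 arrays of the 0.3 ppb group beside the other 17.

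Wild-type zebrafish of the AB strain received no atrazine (0 ppb) or atrazine, a triazine herbicide, at 0.3, 3 or 30 ppb as embryos, from 1 to 72 hpf, and were then raised in clean water. RNA of adult females, labelled as ovaries at 5-6 mpf (the methods give a wider age range), was hybridized in 1 color, with 6 arrays per dose, 24 in all. The 4 doses of a replicate number share a slide. The methods define replicates by starting day, but the labels do not state whether the numbers of these arrays stand for such days. Each value below is a level, the log2 intensity of a target minus the 75th percentile of its array, and it is compared only within a gene.

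In the adult fish brain, radial glia persist as the cells that line the ventricles and give rise to new neurons. They are the cells that carry aromatase B, the product of cyp19a1b, which turns androgens into estrogens, while the ovary relies on a second aromatase gene, cyp19a1a. Radial glia also hold glial filaments, fatty acid binding protein, glutamate transporters and glutamine synthetase, by which glutamate is cleared and returned to neurons as glutamine, and Notch signalling, through genes such as her4.1, keeps them in a progenitor state.

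The 4 arrays of replicate 1 correlated with the median of the other arrays at r between -0.00257 and 0.00236 and had 20.2% to 27.3% of probes well above background, so they entered only as an alternative. Of the remaining 20 arrays, 17 correlated with that median at 0.911 to 0.988. The 0.3 ppb arrays of replicates 3, 5 and 6 correlated at 0.693 to 0.719 and went against their ovary label. All 14 oocyte markers tested were lower on these 3 arrays than on any of the 17, and all 11 neuron markers were higher. Of all targets, 16.3% were lower in this way and 27.6% higher. Among the defining neuron genes, elavl3 was well above background on 3 of 3 and on 0 of 17 arrays. It met the filter on dim probes only through those 3 arrays, so its direction is not read as support. The 3 arrays were singled out by measured brain gene levels, so their comparison with the 17 is given as a description with no test, and the 0.3 ppb fold changes of the 9 genes and the medians of the gene lists are also given without them. The 3 ppb array of replicate 6 had 31.3% of probes well above background, against 62.2% to 86.0% on the other 16 of the 17, and its level at the floor was -4.18.

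At 0.3 ppb against 0 ppb, 8 of the 9 genes had a higher mean and glulb a lower one, and 0 of the 9 passed the test. The test was limma with Benjamini-Hochberg adjustment at 0.05 and a change of at least 1.5-fold in either direction, over 20 arrays. It called 0% of all targets higher and 0.00388% lower (3 targets). Before adjustment, p was under 0.05 and the fold limit met for 8 of the 9 genes, all but slc1a3b, of which s100b met the filter only through its high arrays, and for 20.4% of all targets on the higher side and 14.2% on the lower. The median log2 fold change over all targets was 0.33 at 0.3 ppb, 0.09 at 3 ppb and 0.10 at 30 ppb.

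Brain aromatase cyp19a1b, read by 9 probes, had levels of -7.62, 2.91, -7.38, 2.74 and 2.72 on the 0.3 ppb arrays of replicates 2 to 6, against -7.57, -7.79, -7.50, -6.44 and -5.99 on the 0 ppb arrays of the same replicates. Replicates 3, 5 and 6 at 0.3 ppb were far above every 0 ppb array, and replicates 2 and 4 lay among them. The log2 fold change was 5.73 (SE 1.73, limma adjusted p = 0.0560, n = 5 each). On each 0 ppb array only 1 to 5 of the 9 probes were well above background, so the size of this change rests partly on dim values. With replicate number as a block the adjusted p was 0.0378. Without the 3 arrays the log2 fold change was -0.44 (adjusted p = 0.891).

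The fatty acid binding protein gene fabp7a encodes the brain lipid binding protein of radial glia. Its 8 probes gave 1.74, 7.25, -0.76, 7.26 and 7.39 at 0.3 ppb in replicates 2 to 6, against 1.64, 1.26, 0.29, 1.64 and 2.70 at 0 ppb. The same 3 arrays stood above all others, and replicate 4 at 0.3 ppb was below every 0 ppb array. For fabp7a the log2 fold change was 3.07 (SE 1.34, limma adjusted p = 0.113), and -1.02 without the 3 arrays (adjusted p = 0.887).

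The glial intermediate filament gene gfap, read by 3 probes, had levels of -5.58, -0.10, -5.38, 0.78 and 0.18 at 0.3 ppb, against -5.20, -5.55, -5.53, -3.84 and -4.09 at 0 ppb. Again replicates 3, 5 and 6 at 0.3 ppb did not overlap with the 0 ppb arrays. Its log2 fold change was 2.82 (SE 1.04, limma adjusted p = 0.0720), with an adjusted p of 0.0378 in the fit with the replicate block.

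The calcium-binding protein gene s100b, an astroglial marker, was read by a single probe printed in 2 spots. Its levels at 0.3 ppb were -8.01, 2.19, -8.22, 2.64 and 2.44, against -8.42, -8.53, -8.10, -7.52 and -8.34 at 0 ppb. The probe cleared background on 3 of the 5 arrays at 0.3 ppb and on 0 of 5 at 0 ppb, so the 0 ppb group gives only a bound, and s100b met the filter on dim probes only because of the arrays on which it was high. Replicates 2 and 4 at 0.3 ppb did not clear background either and lay among the 0 ppb levels, so no single fold is given for the dose. Since the filter on dim probes chose s100b for its high arrays, its test is not read as support.

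**Figure D1:**
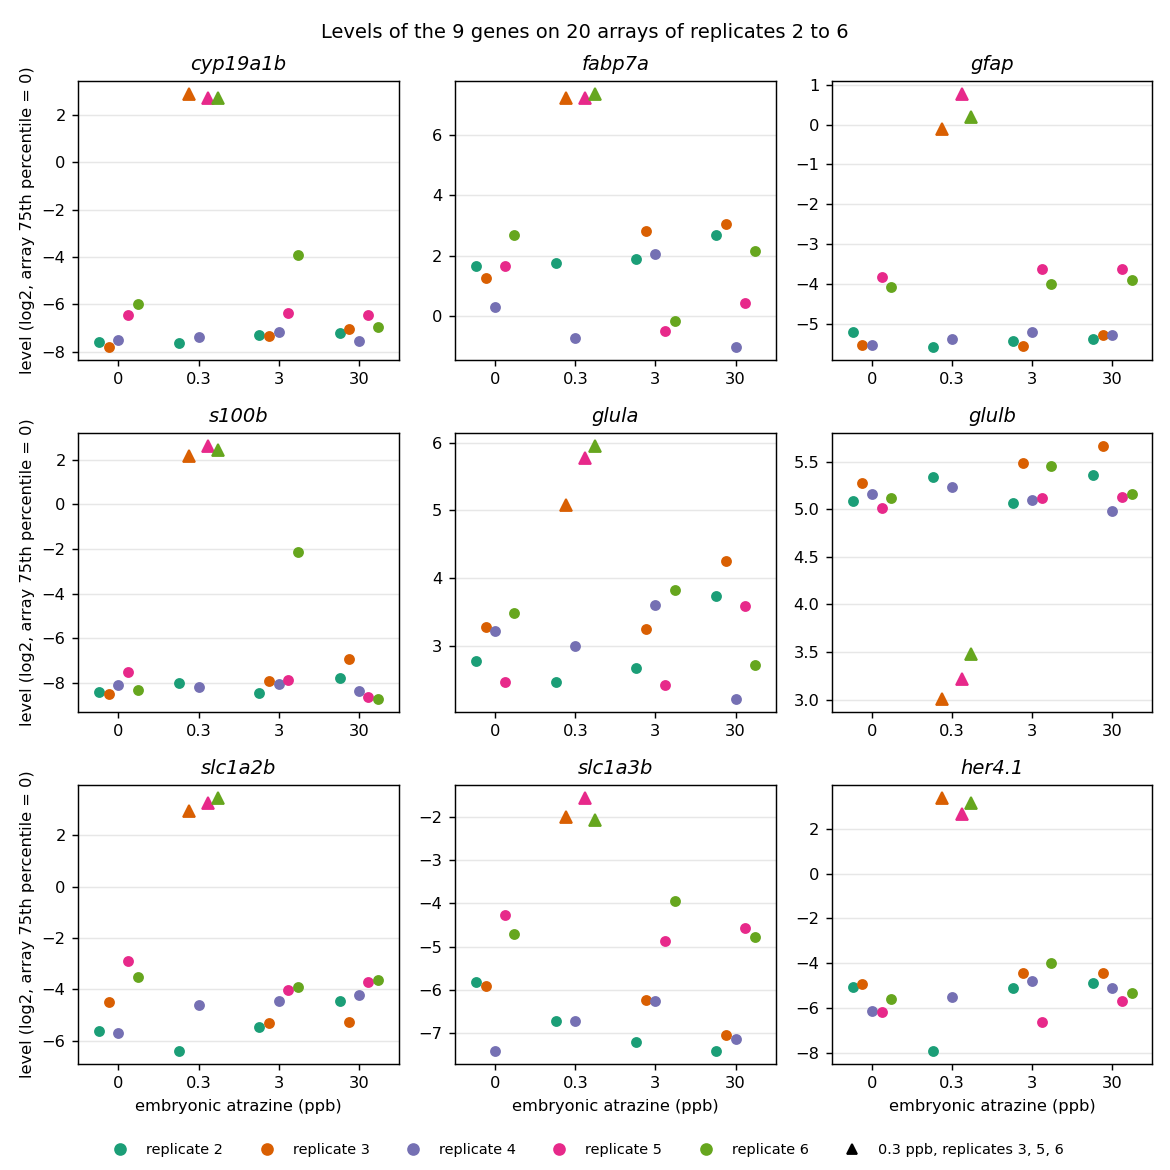
Level of each of the 9 genes (log2, the array's 75th percentile set to 0, a separate scale per panel) on 20 arrays, by embryonic atrazine in ppb and colored by replicate; each point is 1 array and triangles mark the 0.3 ppb arrays of replicates 3, 5 and 6. The triangles lie above all 17 other arrays in 8 panels and below them for glulb. The 3 ppb array of replicate 6 is the highest of the 17 for cyp19a1b (-3.92), slc1a3b (-3.95), her4.1 (-3.98) and s100b (-2.15). On that array, with its floor at -4.18, no probe of cyp19a1b, slc1a3b or her4.1 was well above background.

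Glutamine synthetase, which joins glutamate and ammonia into glutamine, has several gene copies in zebrafish, and the fold changes of the copies glula and glulb had opposite signs. The 4 probes of glula gave 2.46, 5.09, 3.00, 5.77 and 5.96 at 0.3 ppb, against 2.78, 3.28, 3.21, 2.47 and 3.48 at 0 ppb. The 9 probes of glulb gave 5.34, 3.01, 5.24, 3.22 and 3.48 at 0.3 ppb, against 5.09, 5.28, 5.16, 5.01 and 5.11 at 0 ppb. On replicates 3, 5 and 6 the level of glula was above its 0 ppb range and that of glulb below its own. The log2 fold change was 1.41 for glula (SE 0.61, limma adjusted p = 0.108) and -1.08 for glulb (SE 0.40, limma adjusted p = 0.0739). Neither passed with the replicate block (adjusted p = 0.0726 for glula and 0.0544 for glulb), while with scan session as a block glulb was called lower. Neither copy was called without the 3 arrays, where the log2 fold change was -0.31 for glula and 0.16 for glulb.

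The glutamate transporters of glia take glutamate up from the synapse. For slc1a2b, the gene of the transporter known in mammals as GLT-1, 5 probes gave -6.41, 2.94, -4.62, 3.26 and 3.46 at 0.3 ppb, against -5.64, -4.49, -5.71, -2.89 and -3.51 at 0 ppb. For slc1a3b, of the transporter known in mammals as GLAST, 1 probe gave -6.73, -2.01, -6.72, -1.57 and -2.09 at 0.3 ppb, against -5.81, -5.90, -7.41, -4.27 and -4.70 at 0 ppb. Both genes were highest on replicates 3, 5 and 6 at 0.3 ppb. The log2 fold change was 4.18 for slc1a2b (SE 1.501, limma adjusted p = 0.0672, and 0.0383 with the replicate block). It was 1.80 for slc1a3b (SE 1.04, limma adjusted p = 0.231, and 0.0459 with the replicate block).

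The Notch target her4.1 encodes a basic helix-loop-helix repressor and is one of several similar her4 copies, which these data cannot separate since the probe sequences were not used here. Its 4 probes gave -7.93, 3.39, -5.50, 2.65 and 3.14 at 0.3 ppb, against -5.05, -4.95, -6.15, -6.20 and -5.62 at 0 ppb. Replicate 2 at 0.3 ppb was the lowest of the 20 arrays, and replicates 3, 5 and 6 were the highest. On that lowest array no her4.1 probe was well above background, so differences that use it rest on a dim value. For her4.1 the log2 fold change was 4.74 (SE 1.64, limma adjusted p = 0.0621, and 0.0445 with the replicate block).

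With replicate number as a block, which compares doses within slides, 6 of the 9 genes were called higher (cyp19a1b, gfap, s100b, slc1a2b, slc1a3b and her4.1) and 0 lower. Here and in each count of calls below that includes s100b, its call follows from the filter. The same fit called 16.7% of all targets higher and 10.4% lower. Without the 3 arrays, 0 of the 9 genes and 0% of targets were called, with or without the block. In that fit the 0.3 ppb group held replicates 2 and 4 only, the 9 log2 fold changes lay between -1.12 and 0.16 and the adjusted p-values between 0.887 and 0.989. A p that misses the threshold at n = 2 does not show that the levels were alike.

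Other scalings and filters moved the count for the 9 genes together with that for all targets. With quantile normalization 5 were called higher and 0 lower, against 15.9% and 12% of targets. With normexp background correction 6 were higher and glulb lower, against 34.1% and 9.95%. When every array had to show a probe above background, 3 of the 9 genes could be tested, of which glula was called higher and glulb lower, against 13.7% and 32.7%. The methods' analysis of variance before adjustment called cyp19a1b and s100b higher and 0 lower, against 7.1% and 8.51%. Without replicate 2, 7 of the 9 genes were called, against 17.2% of targets higher and 11.7% lower, and without replicate 4 also 7, against 16.5% and 11.4%. Leaving out replicate 3, 5 or 6 gave 0 of 9 and 0% of targets.

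The pairs of arrays on each slide show where the 0.3 ppb difference lay. On slides 3, 5 and 6 the 0.3 ppb array exceeded its 0 ppb array by 8.71 to 10.70 (log2) for cyp19a1b, by 6.16 to 7.43 for slc1a2b and by 8.34 to 8.85 for her4.1. On slides 2 and 4 the same differences were -0.05 and 0.12 for cyp19a1b, -0.77 and 1.098 for slc1a2b, and -2.88 and 0.65 for her4.1. The -2.88 uses a 0.3 ppb array on which no her4.1 probe was well above background. The differences of cyp19a1b rest partly on dim values, since only 1 to 5 of its 9 probes cleared background on each 0 ppb array. For glulb the 0.3 ppb array was lower on slides 3, 5 and 6, with differences of -2.27, -1.79 and -1.64, and the differences on slides 2 and 4 were 0.25 and 0.08.

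**Figure D2:**
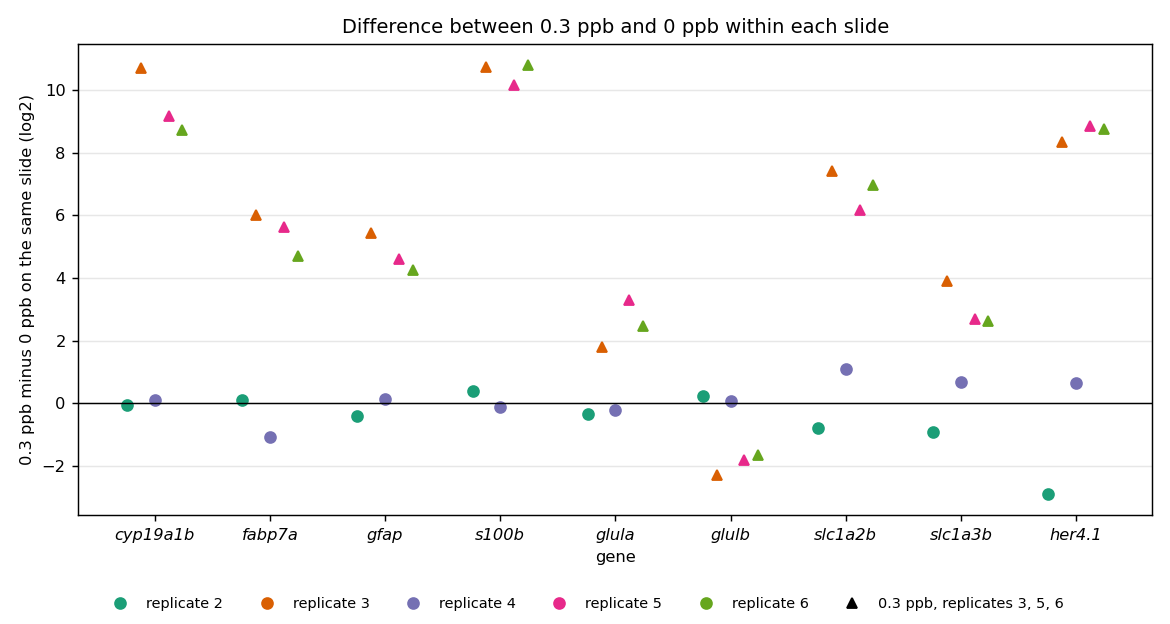
Level on the 0.3 ppb array minus level on the 0 ppb array of the same slide (log2) for each of the 9 genes, with 1 point per slide, colored by replicate; triangles are replicates 3, 5 and 6. For 8 genes the triangles lie above 0 and above the circles of replicates 2 and 4, and for glulb they lie below 0. The s100b probe did not clear background at 0 ppb, so its triangles give no exact size. Those of cyp19a1b rest partly on dim values at 0 ppb.

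Beside the 17 other arrays, the 0.3 ppb arrays of replicates 3, 5 and 6 had no overlap for any of the 9 genes: 8 were higher and glulb was lower. Over all targets, 27.6% were higher with no overlap and 16.3% lower. With only targets seen on every array, glula, fabp7a and glulb remained to be compared, 2 higher and 1 lower, against 19.3% and 44.7%. Since s100b met the filter only through its high arrays, its place among the 8 is not read as support. The gap between the lowest of the 3 arrays and the highest of the 17 was 6.64 (log2) for cyp19a1b, 6.63 for her4.1, 5.83 for slc1a2b, 4.21 for fabp7a, 3.52 for gfap, 1.86 for slc1a3b and 0.84 for glula. No gap is given for s100b, whose highest level of the 17 came from spots that disagreed. For glulb the highest of the 3 arrays (3.48) was below the lowest of the 17 (4.98).

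The 3 ppb array of replicate 6, with few probes above background, set the size of some of these gaps. Without it, an alternative chosen after seeing the data, the gap grew to 8.71 for cyp19a1b, 7.08 for her4.1 and 2.18 for slc1a3b, and the gaps of the other genes but s100b were as before. No other array of the 17 showed s100b well above background, so no size is given for it. The probes of each gene ran the same way: every probe of the 8 genes was higher on the 3 arrays than on any of the 17, from 1 of 1 for s100b and slc1a3b to 9 of 9 for cyp19a1b, and 9 of 9 probes of glulb were lower. Some probes of cyp19a1b cleared background on all of the 3 arrays and on 0 of the 17. These and the s100b probe met the filter on dim probes only through the 3 arrays, so their direction is not read as support. The 3 arrays were close to one another, within 0.19 (log2) for cyp19a1b, 0.14 for fabp7a and 0.45 for s100b, and up to 0.88 for gfap and 0.87 for glula.

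The genes also seen in ovary were read from the 17 arrays, which carry the oocyte genes. Of all probes, 62.2% to 86.0% were well above background on 16 of these arrays, and 31.3% on the 3 ppb array of replicate 6. Being seen by at least 1 probe is therefore a common outcome, more so for genes with many probes. Both glula and glulb had every probe well above background on 17 of 17 arrays, and fabp7a had at least 1 probe above background on 17 and every probe on 16. The filament gene gfap was seen by at least 1 probe on 16 arrays and by all probes on 12, and her4.1 on 15 and on 11. The genes cyp19a1b and slc1a2b were seen by at least 1 probe on 16 arrays each, but by all probes on 0 arrays for cyp19a1b and on 5 for slc1a2b. For cyp19a1b 1 of the 9 probes accounted for these 16 arrays, and each other probe was seen on 0 to 10. The single probe of slc1a3b was well above background on 7 of 17 arrays and that of s100b on 1 of 17, the 3 ppb array of replicate 6.

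Among the 8 genes other than s100b, fabp7a had the widest range over the 17 arrays. Its levels were 1.64, 1.26, 0.29, 1.64 and 2.70 at 0 ppb, 1.74 and -0.76 on the 0.3 ppb arrays of replicates 2 and 4, 1.87, 2.81, 2.04, -0.51 and -0.17 on the 3 ppb arrays, and 2.68, 3.05, -1.04, 0.41 and 2.15 on those of 30 ppb. The 17 values ran over 4.09 (log2), and the 4 doses overlapped. The levels of glula ran over 2.03 and those of glulb over 0.69, a 1.61-fold range, the narrowest of the 9 genes. In bulk RNA of this kind, fewer cells of a type and less RNA per cell cannot be told apart.

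For glula the levels were 2.67, 3.24, 3.60, 2.42 and 3.82 at 3 ppb and 3.74, 4.25, 2.22, 3.59 and 2.72 at 30 ppb. For glulb they were 5.06, 5.48, 5.10, 5.11 and 5.46 at 3 ppb and 5.36, 5.67, 4.98, 5.13 and 5.16 at 30 ppb. Both overlapped with the 0 ppb range at either dose. The highest of the 17 levels of fabp7a, glula and glulb were all on the 30 ppb array of replicate 3.

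At 3 and at 30 ppb, 0 of the 9 genes were called by limma, as were 0% of all targets. Their log2 fold changes were -0.30 to 1.28 at 3 ppb and -0.57 to 0.50 at 30 ppb, each smaller than its SE, with adjusted p = 1.00 throughout. The fit shares 1 spread over the 4 doses, so each SE also holds the split of the 0.3 ppb arrays. For her4.1 the SD was 5.43 at 0.3 ppb, against 0.59 at 0 ppb, 1.01 at 3 ppb and 0.47 at 30 ppb. A change smaller than such an SE does not show that the levels were alike. Without the 3 arrays 0 of the 9 genes were called at either dose. Levels of cyp19a1b were -7.33 to -3.92 at 3 ppb and -7.52 to -6.44 at 30 ppb, and those of gfap -5.56 to -3.63 and -5.37 to -3.62. Those of slc1a2b were -5.48 to -3.92 at 3 ppb and -5.26 to -3.65 at 30 ppb, of slc1a3b -7.21 to -3.95 and -7.41 to -4.58, and of her4.1 -6.62 to -3.98 and -5.69 to -4.45. For cyp19a1b, slc1a2b, slc1a3b and her4.1 the upper end at 3 ppb came from the array of replicate 6. Its floor was -4.18, and no probe of these genes was well above background on it. The highest levels on the other 3 ppb arrays were -6.35, -4.05, -4.88 and -4.43 in the same order. The largest log2 fold change, for s100b at 3 ppb, rested on the array of replicate 6: it read -2.15, and the 4 other 3 ppb arrays read -8.49 to -7.89. None of the 9 genes had levels at 3 or 30 ppb that were free of overlap with 0 ppb, which 0.381% of all targets had on the higher side at 3 ppb and 0.401% at 30 ppb.

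On the 17 arrays the levels of gfap, slc1a3b, cyp19a1b and slc1a2b differed between scan sessions, the groups of slides read together, and those of the other 5 genes overlapped. The 25th percentile of levels was -5.38 to -3.96 on the arrays of session 2, which holds slides 5 and 6, against -7.14 to -6.65 in session 1 and -6.92 to -6.64 in session 3. In session 2 gfap lay at -4.09 to -3.62, against -5.58 to -5.20 in session 1 and -5.56 to -5.21 in session 3, with no overlap. The gene slc1a3b lay at -4.88 to -3.95 in session 2, against -7.41 to -5.81 in session 1 and -7.41 to -5.90 in session 3.

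The same held for cyp19a1b, at -6.94 to -3.92 in session 2 against -7.62 to -7.22 in session 1 and -7.79 to -7.05 in session 3, and for slc1a2b. The session medians of s100b (-8.21, -8.11 and -8.10 in sessions 1, 2 and 3) were close, and that of her4.1 was lowest in session 2 (-5.66). The part of the session in the spread of gfap, cyp19a1b, slc1a2b and slc1a3b was not tested. Each session holds all 4 doses, and with scan session as a block 5 of the 9 genes were called higher and 1 lower at 0.3 ppb, against 17.6% and 11.2% of all targets.

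**Figure D3:**
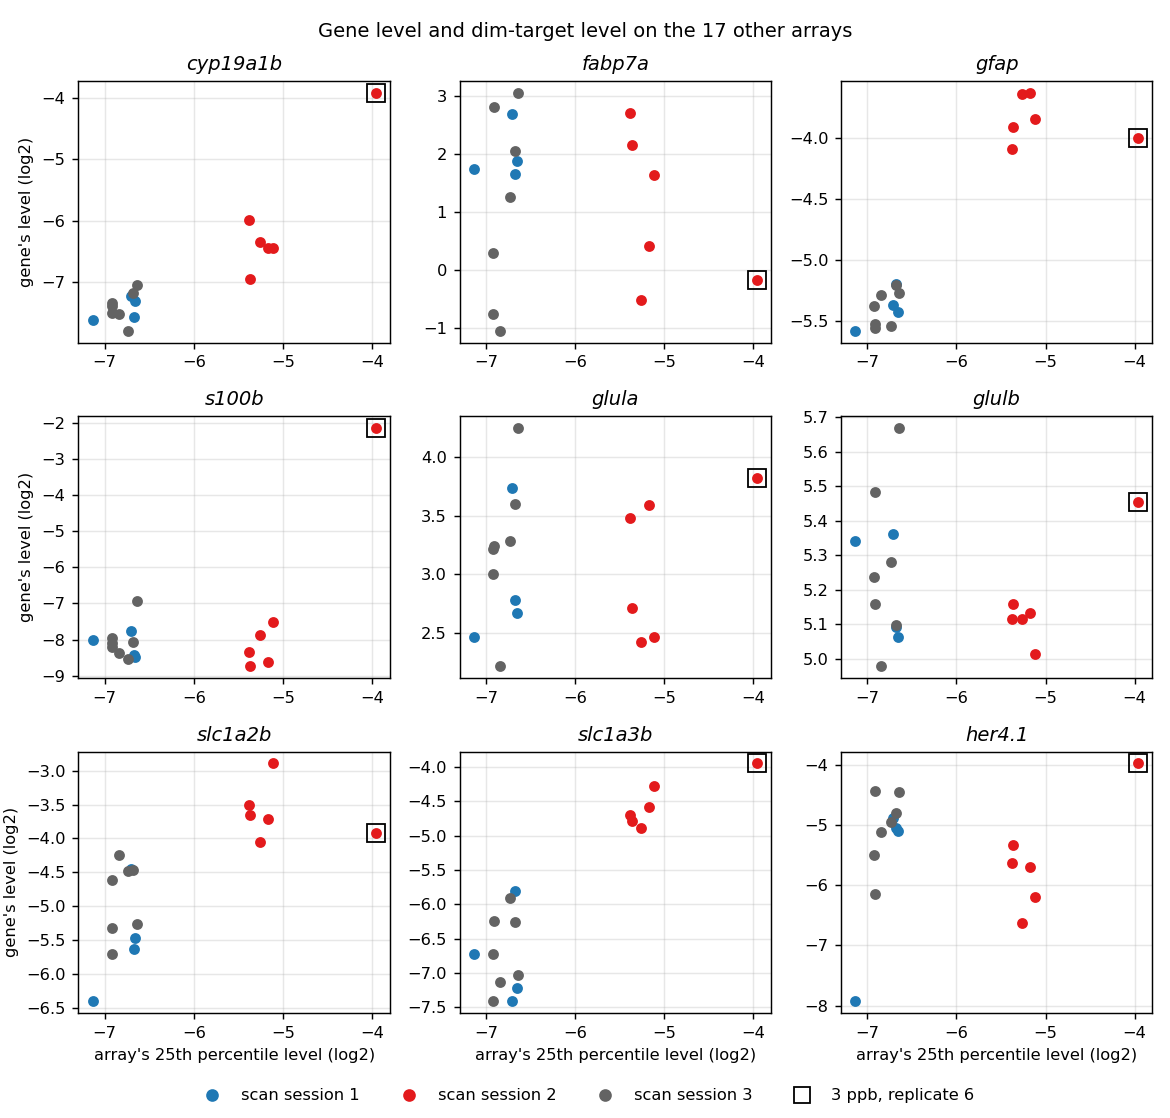
Level of each of the 9 genes (log2) against the 25th percentile of levels on the same array (log2), for the 17 other arrays, colored by scan session, with a square around the 3 ppb array of replicate 6. In session 2 the levels of gfap (-4.09 to -3.62), slc1a3b (-4.88 to -3.95), cyp19a1b and slc1a2b were above those of sessions 1 and 3, and those of fabp7a, s100b, glula, glulb and her4.1 overlapped.

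The other genes of radial glia and astroglia, a list of 21 of which 18 were tested, were also mostly higher on the 3 arrays. Of the 18, 15 were higher with no overlap and 1, sox9b, was lower, against 27.6% and 16.3% of all targets. Their median log2 fold change at 0.3 ppb was 2.63 (0.33 over all targets), and -0.21 without the 3 arrays (-0.36 over all targets). The 6 with the greatest change at 0.3 ppb were atp1a1b, a sodium pump subunit (5.75), cspg5b, a brain proteoglycan core protein (4.83), sox2, a stem cell transcription factor (4.36), vim, of the filament vimentin (4.33), s1pr1, a sphingosine 1-phosphate receptor (3.84), and ptn, of the growth factor pleiotrophin (3.80), all as log2 fold changes. None of the 18 was called by limma (adjusted p = 0.0560 to 0.0677 for these 6). With replicate number as a block 13 were called higher and 0 lower, against 16.7% and 10.4% of all targets, among them these 6 (adjusted p = 0.0378 to 0.0426). Without the 3 arrays 0 were called, and the log2 fold change of vim was 0.14. At 0 ppb cspg5b cleared background on 2 of 5 arrays, so its fold rests partly on dim values.

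Their levels lay apart by several log2 units in most cases. For sox2 the 3 arrays lay at 1.32 to 1.65 and the 17 at -7.04 to -3.94, and for vim at 2.37 to 2.95 and -5.28 to -2.71. The second fatty acid binding protein copy, fabp7b, lay at -0.99 to 0.69 on the 3 arrays and at -6.93 to -2.67 on the 17, and was seen on 16 of the 17. The water channel gene aqp4 overlapped, at -4.72 to -3.54 on the 3 arrays and -4.76 to -2.05 on the 17.

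Of 16 genes of glutamate uptake and the glutamine cycle, 13 were tested. On the 3 arrays 5 were higher with no overlap and 1, glud1a, was lower, against 27.6% and 16.3% of all targets. The median log2 fold change at 0.3 ppb was 0.04, and -0.95 without the 3 arrays. In the fit without a block 0 were called, and with the replicate block slc1a3a was called higher and slc1a7a lower (adjusted p = 0.0378 and 0.0393). That block fit called 16.7% of all targets higher and 10.4% lower. The named 6 were the neuronal transporters slc1a6 (log2 fold change 2.39) and slc1a1 (2.20), the glutamine transporter slc38a3a (1.81), slc1a7a (-1.73), the third synthetase copy glulc (1.52) and the second GLAST copy slc1a3a (1.32), with limma adjusted p between 0.0560 and 0.201. At 0 ppb slc1a6 was well above background on 2 of 5 arrays and slc38a3a on 3 of 5. Unlike slc1a3b, slc1a3a was seen on all of the 17 arrays, at -2.05 to -0.67, and lay at 0.11 to 0.50 on the 3. The copy slc1a2a overlapped, at -6.68 to -3.88 on the 3 arrays and -7.11 to -2.95 on the 17, where slc1a2b had a gap of 5.83.

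The third copy of glutamine synthetase, glulc, differed from glula and glulb. Its levels in replicates 2 to 6 were -3.85, -3.37, -4.62, -3.82 and -6.38 with 0 ppb, -3.27, -3.34, -1.79, -2.82 and -3.26 on the 0.3 ppb arrays, -1.30, -1.21, -0.69, -2.69 and -3.62 on those of 3 ppb, and -0.91, -2.21, -2.58, -1.17 and -1.78 at 30 ppb. The 30 ppb levels did not overlap with those at 0 ppb, those at 3 ppb did in replicate 6, and replicates 3, 5 and 6 at 0.3 ppb lay close to replicate 2 of their own dose. For glulc the log2 fold change was 2.51 at 3 ppb and 2.68 at 30 ppb (SE 0.60 each), and neither passed limma's adjustment (adjusted p = 1.00 each, unadjusted p = 0.000560 and 0.000294). Leaving out 1 replicate at a time gave 2.15 to 2.85 at 3 ppb and 2.20 to 3.06 at 30 ppb. At 0 ppb and at 3 ppb glulc was well above background on 4 of 5 arrays, so its fold rests partly on dim values. The methods' analysis of variance called glulc higher at both doses before adjustment, as it did 0.107% of all targets at 3 ppb and 0.0595% at 30 ppb, and at neither after Benjamini-Hochberg adjustment.

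In the Notch pathway 18 of 23 genes were tested. On the 3 arrays 10 were higher with no overlap and 4 lower (notch1a, jag2b, rbpja and hey2), against 27.6% and 16.3% of all targets. The median log2 fold change at 0.3 ppb was 0.83, and -0.15 without the 3 arrays, and 0 were called in either fit. With the replicate block 5 were called higher (dla, her9, jag1b, dll4 and notch1b) and 2 lower (notch1a and rbpja), with adjusted p between 0.0378 and 0.0468. Among all targets that block fit called 16.7% higher and 10.4% lower. The 6 named were the ligand dla (3.28), the repressor her9 (2.59), the ligand jag1b (2.12), the repressor her6 (1.66), the ligand dll4 (1.57) and the receptor notch1b (1.54), as log2 fold changes, with limma adjusted p between 0.0581 and 0.132. The fold of dla rests on dim values, since at 0 ppb it cleared background on 1 of 5 arrays, and notch1b had a log2 fold change of 0.042 without the 3 arrays. Levels of her9 were 0.91 to 1.13 on the 3 arrays and -4.39 to -0.41 on the 17. Those of the receptor notch1a were -1.81 to -0.74 on the 3 arrays and 0.42 to 1.15 on the 17, and of rbpja, the DNA-binding partner of Notch, -1.91 to -1.60 and 0.17 to 0.84.

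Of 15 genes of estrogen synthesis and its receptors, 12 were tested. On the 3 arrays 2 were higher with no overlap (gper1 and nr5a1b) and 3 lower, against 27.6% and 16.3% of all targets. The median log2 fold change at 0.3 ppb was 0.36, and -0.51 without the 3 arrays, and 0 were called in either fit. With the replicate block gper1 was called higher and cyp19a1a and hsd17b1 lower (adjusted p = 0.0378, 0.0378 and 0.0477), against 16.7% and 10.4% of all targets. The 3 lower were the ovarian aromatase cyp19a1a, hsd17b1, whose product reduces estrone to estradiol, and hsd17b12a, with log2 fold changes of -2.09, -1.95 and -1.81, and of -0.65, -0.36 and 0.14 without the 3 arrays. The other named genes were the membrane estrogen receptor gper1 (1.27), nr0b1, which encodes the nuclear receptor Dax1 (1.04), and the nuclear receptor esr1 (0.95). The limma adjusted p of the 6 lay between 0.0560 and 0.428.

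The fold changes of the aromatase copies had opposite signs. The ovarian copy cyp19a1a had levels of -2.04, -5.11, -0.36, -2.69 and -3.02 at 0.3 ppb in replicates 2 to 6, against 0.08, -0.71, -0.19, -0.76 and -1.21 at 0 ppb. It was lowest on replicates 3, 5 and 6 at 0.3 ppb, where cyp19a1b was highest, but replicate 2 was also below every 0 ppb array, at a cyp19a1b level of -7.62. For cyp19a1a the limma adjusted p was 0.0560, and 0.887 without the 3 arrays. Levels at 3 ppb (-0.41 to 1.89) and 30 ppb (-0.57 to 0.67) overlapped with 0 ppb.

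The levels of nr0b1 were -4.68, -4.15, -4.45, -4.36 and -3.67 with 0 ppb, -3.69, -1.45, -4.27, -3.34 and -3.38 on the 0.3 ppb arrays, -2.67, -2.93, -1.98, -2.53 and -2.87 on those of 3 ppb, and -2.24, -2.61, -2.92, -2.69 and -2.39 at 30 ppb. Neither the 3 ppb nor the 30 ppb levels overlapped with those at 0 ppb. The log2 fold change was 1.67 at 3 ppb and 1.69 at 30 ppb (SE 0.41 each, limma adjusted p = 1.00 each, unadjusted p = 0.000664 and 0.000580). The methods' analysis of variance likewise called nr0b1 at both doses before adjustment and at neither after it. When a probe had to clear background on every one of the 20 arrays, which left 20363 targets, nr0b1 was the only target called at 30 ppb (0.00491% of them), at a log2 fold change of 2.74 (adjusted p = 0.0425), and at 3 ppb its adjusted p was 0.685.

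Over the 59 different genes of the 4 lists, 5 were higher at 3 ppb than at 0 ppb with no overlap (mdka, notch2, jag1b, her9 and nr0b1) and 4 at 30 ppb (slc1a3a, glulc, hey2 and nr0b1), with 0 lower at either dose. Over all targets, 0.381% were higher and 0.177% lower at 3 ppb, and 0.401% and 0.0969% at 30 ppb. The 3 ppb group holds the array of replicate 6, with its floor at -4.18, and the part of that array in these counts was not tested. At 3 ppb jag1b (-4.03 to -3.71) was well above background on 4 of 5 arrays, and mdka was on 16 of the 17, so both rest partly on dim values. The genes notch2, her9 and nr0b1 were seen on all of the 17.

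**Figure D4:**
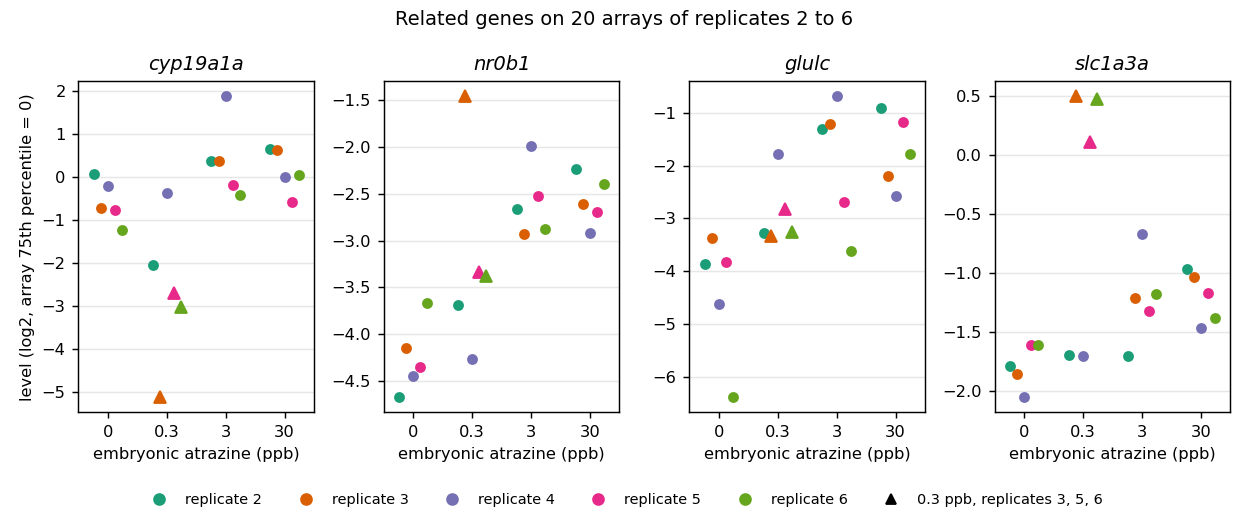
Level (log2, the array's 75th percentile set to 0, a separate scale per panel) of cyp19a1a, nr0b1, glulc and slc1a3a on 20 arrays, by embryonic atrazine in ppb and colored by replicate, with triangles for the 0.3 ppb arrays of replicates 3, 5 and 6. The 3 and 30 ppb arrays lie above all 0 ppb arrays for nr0b1, and the 30 ppb arrays do for glulc and slc1a3a.

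Markers of some other cell types were also higher on the 3 arrays, read against 27.6% of all targets higher with no overlap and 16.3% lower. The mean of the 11 neuron markers, each set against its median on the 17 arrays, was 9.34 to 9.65 (log2) on the 3 arrays and -0.82 to 1.72 on the 17. It includes elavl3, which met the filter only through the 3 arrays. The mean of 9 oligodendrocyte and myelin markers, of which 8 had no overlap, was 5.07 to 5.36 and -0.52 to 0.73, and that of 6 blood genes, of which 5 had none, 3.22 to 4.45 and -1.40 to 2.40. Markers of the retina (3 of 12 higher with no overlap) and pituitary (1 of 7) were mostly within the range of the 17. So were those of microglia (1 of 8 higher and 1 lower, with means of -0.88 to -0.19 on the 3 arrays and -2.03 to 1.74 on the 17). Of 2 endothelium markers 0 were free of overlap, with means of 0.77 to 1.95 on the 3 arrays and -1.33 to 1.42 on the 17. The lower microglia gene, ctss2.1, lay at -2.79 to -2.06 on the 3 arrays and at 5.60 to 6.23 on the 17. It pulls the microglia mean on the 3 arrays down. None of 5 liver genes was free of overlap, and their mean was 6.48, -0.92 and -3.83 on replicates 3, 5 and 6, with -5.38 to 3.68 on the 17. Of 6 muscle genes 3 were higher and 1 lower, and the 1 ependyma gene tested was higher.

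The ovary genes were lower on the 3 arrays. The mean of the 14 oocyte markers was -8.65 to -7.44 on the 3 arrays and -0.19 to 0.47 on the 17. For the 10 somatic follicle cell markers, of which 4 were lower with no overlap (16.3% of all targets), it was -3.06 to -2.21 and -0.62 to 0.66. The same mean over the 9 genes was 5.67 to 5.90 on the 3 arrays and -0.70 to 1.51 on the 17, where 1.51 belongs to the 3 ppb array of replicate 6. The part of these other cell types in the levels of the 9 genes was not tested.

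**Figure D5:**
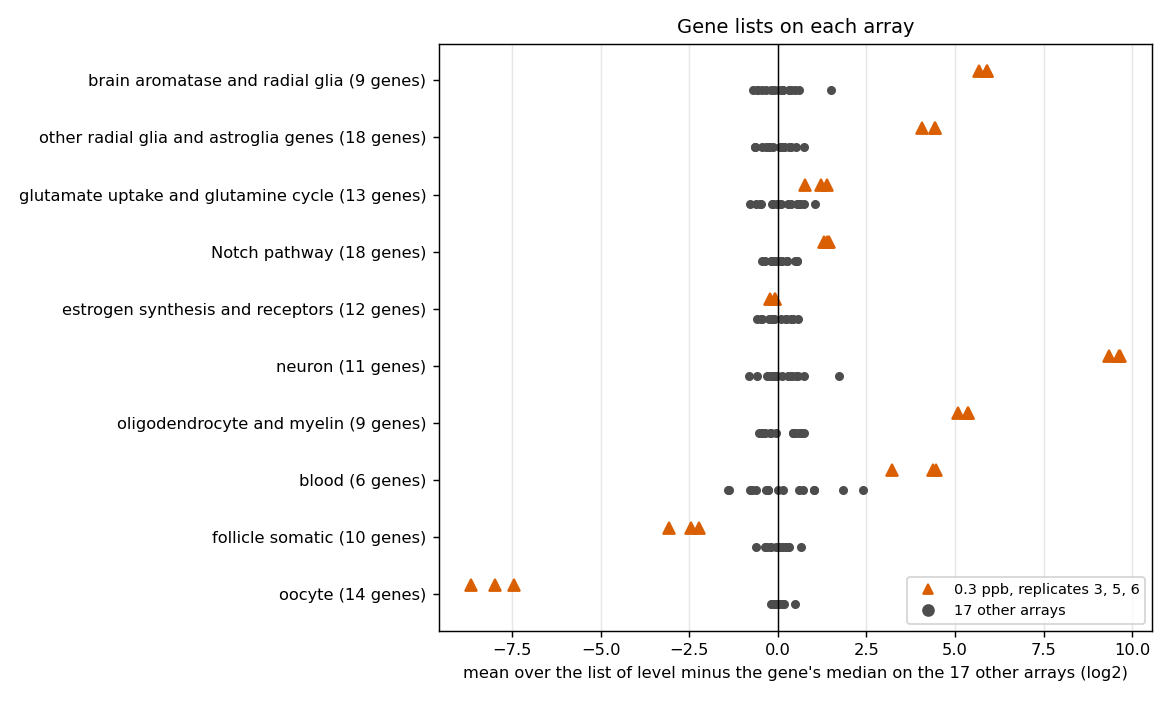
Mean over each gene list of the level minus the gene's median on the 17 other arrays (log2), with 1 point per array; triangles are the 0.3 ppb arrays of replicates 3, 5 and 6 and circles the 17 others. For the 9 brain aromatase and radial glia genes the triangles lie at 5.67 to 5.90, for neuron markers at 9.34 to 9.65 and for oocyte markers at -8.65 to -7.44, where the circles lie at -0.70 to 1.51, -0.82 to 1.72 and -0.19 to 0.47 in the same order.

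Over the 20 arrays, the 10 annotated targets whose levels ran most like those of cyp19a1b were nrn1a, stmn2a, stxbp6l, cabp1a, camkvb, slc6a1a, snap25b, si:ch211-251b21.1, gpm6ba and cdk5r2a, with Pearson r between 0.994 and 0.997. One of them, snap25b of synaptic vesicle fusion, is on the list of neuron markers used above, and slc6a1a encodes a transporter of the transmitter GABA. Among 13378 annotated targets, 58 had r over 0.99 and 1650 over 0.9. The 20 points fall apart into the 3 arrays and the 17, and r describes that split.

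Over the 17 arrays alone the most like targets were others. For fabp7a they were fam184aa, pik3cd and crygmxl1 (r = 0.822, 0.790 and 0.790), for glula dnaja1, slc7a6os and podxl (0.877, 0.872 and 0.854) and for glulb ddx56, aldoaa and pde12 (0.904, 0.904 and 0.903). For her4.1 they were emx2, katnbl1 and zgc:123105 (0.844, 0.840 and 0.825). They were ptger2b, elapor2b and abi3bpb for cyp19a1b (0.971, 0.961 and 0.958), zgc:77748, ppp1r1c and olig3 for gfap (0.987, 0.987 and 0.986), and hoxc13a, or92a1 and dock4b for slc1a2b (0.899, 0.897 and 0.896). The levels of these 3 genes also differed between scan sessions, and the part of the session in r was not tested. On the 3 ppb array of replicate 6, cyp19a1b (-3.92) and her4.1 (-3.98) were at their highest of the 17, with no probe well above background. The part of that array in r was not tested either. For gfap 801 targets had r over 0.9, against 0 for fabp7a.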

How the data were processed

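The authors hybridized each RNA to its own 1-color array, scanned it and extracted it with Agilent Feature Extraction 11.5. The deposited spot intensity is the processed signal, corrected for background by that software, and the authors' GeneSpring normalization is not part of these values and was not repeated. Genome build and probe sequences are not given in the sources used here, so no sequence or coordinate is printed.

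Spots flagged as outliers were left out, the log2 intensity (values under 1 set to 1) was taken, and the 75th percentile of each array subtracted. Probes that cleared background on 3 or more of the 20 arrays were kept, spots were averaged per probe and probes per target, and targets with fewer than 2 values in any group were dropped. The main fit was limma 3.58.1 in R 4.3.3 (package data.table, version 1.17.8), with 4 dose groups, no block and Benjamini-Hochberg adjustment over 77368 targets; the study's methods state an analysis of variance with the same 1.5-fold threshold and no block. The number of arrays limits the precision. Figures used Python 3.11.15, pandas 2.3.3, numpy 2.4.6 and matplotlib 3.10.9.

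Replicate numbers pair the samples by slide, since each number has its own. Whether a number also stands for a starting day, by which the methods define replicates, is not given by the labels. Deviations from group means correlated over 0.1 in 26 of 30 same-number pairs (median 0.294), against a median of -0.175 in 120 other pairs. Such deviations cancel within a group, so where same-number pairs correlate positively the other pairs are pushed toward negative values. Slide, scan session and starting day cannot be told apart by these correlations. On simulated data for 0.3 ppb against 0 ppb over 77368 targets, 22% of targets changed by 2 (log2) and 79% of those changed by 4 were recovered, with 8 false calls. The simulation used independent noise with the same spread in every group and shifted all 0.3 ppb arrays alike. In the data the 0.3 ppb arrays were split, with an SD for cyp19a1b of 5.64 at 0.3 ppb and 0.79 at 0 ppb. The recovery rates therefore do not carry over to this comparison.

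The 9 genes, related lists and markers were chosen with earlier results of these data known. Named genes are the 9, up to 6 per related list by absolute log2 fold change at 0.3 ppb, and the targets most correlated with cyp19a1b or with a gene seen on at least 12 of the 17 arrays. Symbols came from RefSeq accessions and matched 13522 of the 77368 targets. Alternatives were quantile normalization, normexp (offset 50, on the median pixel signal since a mean signal was not used here), other filters, blocks by replicate and scan session, left-out replicates or arrays, all 24 arrays, the median over probes and the methods' analysis of variance.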

Additional observations from a re-analysis of the deposited data

Results flagged for a closer look

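In groups of 5 arrays, Dixon's ratio (the gap of the extreme array to its neighbor over the group's range, limit 0.71) marked 2 of 36 combinations of gene and dose, a test that marks about 1 in 20 by chance. Both were on the 3 ppb array of replicate 6, the array with 31.3% of probes well above background and a floor at -4.18. There cyp19a1b read -3.92 (ratio 0.711), which lies near that floor, and no probe of cyp19a1b was well above background. The level of s100b there was -2.15 (ratio 0.905). It came from 2 spots of the same probe with intensities of 70.4 and 1136, of which only the second was well above background.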

How the results depend on the processing

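The counts at 0.3 ppb depended on the 3 arrays of replicates 3, 5 and 6, on the scaling and on the blocks, and the cause of each shift below was not tested. Targets called at 0.3 ppb against 0 ppb were 3 in the main setting, 21563 with quantile normalization, 34050 with normexp, 9441 with probes well above background on all 20 arrays (all-20 probes), 20911 with the replicate block, 22277 with scan session as a block, 12078 with the methods' analysis of variance unadjusted (2 after adjustment), 1 with only the 2 groups compared, and 0 with all 24 arrays or without the 3 arrays, with and without the replicate block. Of these, 12303 were higher and 9260 lower with quantile normalization, 26355 and 7695 with normexp, 2780 and 6661 with all-20 probes and 12899 and 8012 with the replicate block, against 0 and 3. The median log2 fold change of all targets was 0.33, and 0.56 with normexp and -0.35 with all-20 probes. Fits without the 3 ppb array of replicate 6, with filled probes, or with the replicate block but without the 3 arrays, were chosen after seeing the data. Of the 9 genes 0 were called in the main setting, 5 with quantile normalization, 7 with normexp, 2 of 3 tested with all-20 probes, 6 with either block and 2 by the unadjusted analysis of variance. Of the 59 related genes 0, 26, 33, 15 of 30, 24 (replicate block), 23 (scan session) and 13 were called in the same settings. Leaving out 1 replicate at a time gave 0 to 22338 targets, 0 to 7 of the 9 genes and 0 to 26 related genes: 7 of the 9 without replicate 2 or 4, 0 without 3, 5 or 6. At 3 ppb 118 targets were called by the unadjusted analysis of variance and 1 without the 3 arrays. At 30 ppb these were 58 by that analysis, and 1 each with all-20 probes, with scan session as a block and with the replicate block without the 3 arrays. None of the 9 genes was called at 3 or 30 ppb in any setting run in which it was tested. With all-20 probes 2 of the 3 genes tested were higher on the 3 arrays with no overlap, and 4 of 9 rather than 7 were seen on at least 12 of the 17 arrays when every probe had to be above background. No share over all targets was computed for the latter count. On the 17 arrays 31.3% to 86.0% of all probes were well above background.

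Without the 3 arrays the log2 fold change at 0.3 ppb changed sign for cyp19a1b (-0.44), fabp7a (-1.02), gfap (-0.64), glula (-0.31), glulb (0.16), slc1a2b (-1.06), slc1a3b (-1.10), her4.1 (-1.12), atp1a1b (-0.18), cspg5b (-0.25), sox2 (-0.092), s1pr1 (-0.48), ptn (-1.18), dla (-0.083), her9 (-0.17), jag1b (-0.22), her6 (-0.72), slc1a6 (-1.07), slc1a1 (-1.004), slc38a3a (-0.92), hsd17b12a (0.14), gper1 (-0.86) and esr1 (-0.48). With the replicate block as well, it did so for fabp7a (-0.88), gfap (-0.068), glula (-0.19), glulb (0.24), slc1a2b (-0.52), slc1a3b (-0.068), her4.1 (-1.17), s1pr1 (-0.13), ptn (-0.87), jag1b (-0.035), her6 (-0.66), dll4 (-0.23), slc1a6 (-0.53), slc1a1 (-1.11), slc38a3a (-0.28), hsd17b12a (0.41) and esr1 (-0.66).

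Other sign changes were at 3 and 30 ppb, in log2 fold changes smaller than their SE in the main fit, an SE that also holds the split of the 0.3 ppb arrays. At 3 ppb they were in fabp7a (0.045 without the 3 ppb array of replicate 6, and -0.81 to 0.34 leaving out 1 replicate), gfap (-0.33 with quantile normalization, -0.12 without that array, and up to 0.15 leaving out 1 replicate), glula (-0.25 with all 24 arrays and -0.062 without that array), slc1a2b (0.16 with the median over probes, and -0.56 to 0.043 leaving out 1 replicate) and slc1a3b (0.14 with normexp, and -0.40 to 0.24 leaving out 1 replicate). At 30 ppb they were in cyp19a1b (-0.16 with quantile normalization, -0.15 with probes above background on at least 5 arrays, -0.16 with all 24 arrays, -0.32 with the median over probes, and -0.16 to 0.27 leaving out 1 replicate), fabp7a (-0.52 to 0.26 leaving out 1 replicate), s100b (-0.0073 with quantile normalization, and -0.28 to 0.39 leaving out 1 replicate), glula (-0.34 with all 24 arrays), slc1a2b (-0.18 with all 24 arrays, and -0.14 to 0.44 leaving out 1 replicate) and slc1a3b (0.085 with normexp). The log2 fold changes of glulc and nr0b1 at 3 and 30 ppb were positive in every setting run. Signal over background limits s100b and slc1a3b on the 17 arrays, where their probes were well above background on 1 and 7. It also limits cyp19a1b, which was seen by all of its probes on 0 of the 17.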
